A study of Homo sapiens with 6 samples.

Results

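The plasminogen system and the matrix metalloproteases (MMPs) were described through 9 genes, which were found by their symbols among the 60498 genes of the table. They are the urokinase receptor gene PLAUR, the plasminogen activator genes PLAU and PLAT, the inhibitor genes SERPINE2 and SERPINB2, and MMP1, MMP7, MMP10 and MMP25. The 9 genes were selected on their normalized levels and their folds with cGAMP in these same libraries, so their values are a description and carry no test. RNA was sequenced from SKOV3, an established human ovarian cancer cell line, in a study of common alleles of STING1, the receptor for the cyclic dinucleotide 2'3'-cGAMP. WT denotes the allele that the study takes as wild type, and HAQ is a common haplotype with several linked amino acid changes.

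The parental line carries both alleles (WT/HAQ). The WT/- and HAQ/- lines each keep only the allele in their name, since the other was deleted with a lentiviral Cas9 vector and paired guides flanking the coding sequence. Each is 1 clone grown from a single cell after puromycin selection, so the effect of the remaining allele and the history of the clone cannot be told apart. Each line gave 1 control library and 1 treated library. cGAMP was given at 10 μg/mL over 30 min, in a digitonin buffer that permeabilises cells, and was followed by 4 h of rest. The sample labels, however, place the harvest directly after treatment, and whether control cells received the digitonin buffer is not given in the sources used here. With 1 library per condition there is no replicate check, and the 95% intervals below cover counting error only. The libraries are bulk RNA, in which fewer cells with a transcript and less of it per cell cannot be told apart.

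Plasminogen is a circulating zymogen that urokinase (encoded by PLAU) and tissue plasminogen activator (PLAT) cleave to plasmin, a broad protease that dissolves fibrin. The receptor encoded by PLAUR holds urokinase at the cell surface, and serpins such as protease nexin 1 (SERPINE2) and plasminogen activator inhibitor 2 (SERPINB2) inactivate the activators. Plasmin also activates several secreted pro-MMPs, zinc proteases that cleave collagens and other matrix proteins, and both systems are known for their part in the invasion of ovarian cancer cells.

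Totals ranged from 12444822 to 17608467 counts per library. The 15126 genes that averaged 10 counts or more per library are called analysed genes here. Counts were scaled by the TMM method on those genes, and levels are given as scaled counts, which correct for library size and not for gene length. Of the 9 genes, 8 were analysed and SERPINB2 was not. STING1 had 669 scaled counts in the WT/HAQ control library, 353 in WT/- and 213 in HAQ/-. All 6 epithelial marker genes had more than 10 counts in all 6 libraries, with a summed level between 16718 and 38605 scaled counts, but MUC16 (1 to 72 counts) and WT1 (2 to 25 counts) of the 4 ovarian markers were low, so that 2 to 4 of them passed 10 counts. Of the 6 leukocyte markers 1 passed 10 counts in each library (the macrophage and lysosome gene CD68), PTPRC and CD3E were at or near 0, and the 6 together summed to between 417 and 706. The 4 endothelial markers summed to between 26.2 and 111. Of the 5 fibroblast markers 4 passed 10 counts, with sums between 1337 and 2210, while PDGFRB was at or near 0. ISG15, an interferon-stimulated gene that reads out the treatment, was 135-fold higher with cGAMP in the parental line, 48.4-fold in WT/- and 35.6-fold in HAQ/-. IFIT1, another interferon-stimulated gene, was 266-fold, 108-fold and 53.0-fold higher in the same order. IFNB1, the gene of interferon beta, went from 5 to 1325 counts in the parental line, from 2 to 1934 in WT/- and from 6 to 15 in HAQ/-.

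Promoters were examined for a motif that 4 of these genes share. RefSeq promoters of 6 of the 9 genes were at hand (PLAUR, PLAU, SERPINE2, SERPINB2, MMP7 and MMP10), and MMP1, MMP25 and PLAT had no entry. The AP-1 motif was searched as TGANTCA, where N is any base, a looser form of TGA(C/G)TCA, the binding sequence of FOS and JUN dimers. In the 250 bases before the start site, TGANTCA was found on either strand in 4 of the 8 promoters that these 6 genes have. These were 1 each in 4 genes, against 6.57% of 35116 promoters in all. The stretches that hold it are shown so that the shared motif can be seen in its context in PLAUR, MMP7 and MMP10, which differed between libraries as described below, and in SERPINB2, which was close to silent. Capitals mark the motif, whose middle base is G in PLAUR and MMP7 but A, which only the looser form admits, in MMP10 and SERPINB2. The sequences are from GRCh38.p14 and read 5' to 3' on the strand of the gene. The PLAUR stretch is chr19:43670338-43670366 on the minus strand, inside the first exon of a longer annotated PLAUR transcript. The MMP7 stretch is chr11:102530753-102530857 on the minus strand, the MMP10 stretch is chr11:102780634-102780738 on the minus strand, and the SERPINB2 stretch is chr18:63887595-63887699 on the plus strand.
PLAUR: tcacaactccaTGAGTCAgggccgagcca
MMP7: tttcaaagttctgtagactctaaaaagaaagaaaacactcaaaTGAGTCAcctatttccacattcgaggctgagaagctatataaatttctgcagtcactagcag
MMP10: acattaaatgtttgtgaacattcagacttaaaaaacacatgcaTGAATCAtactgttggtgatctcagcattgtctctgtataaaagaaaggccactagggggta
SERPINB2: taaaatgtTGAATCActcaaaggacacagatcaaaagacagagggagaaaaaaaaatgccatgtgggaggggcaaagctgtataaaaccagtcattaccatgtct

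The motif began 67 bases before the start site in both MMP7 and MMP10, 102 bases before it in SERPINB2 and 186 bases before it in PLAUR. The NF-kB motif GGANTTTCC was in 0 of the 8 and in 1.45% of all promoters, and the ETS core AGGAAG was in 4 of the 8 (PLAU, PLAUR, MMP7 and SERPINB2) and in 28.7% of all. The repeat TTTCNNTTT, found in interferon response elements, was in 1 of the 8 (MMP7, 89 bases before the start) and in 9.20% of all. None of these matches overlapped another. A match describes the letters of the window and not the binding of a factor.

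The cGAMP response of the 9 genes was led by PLAUR, which was higher by more than 1.5-fold in all 3 lines, while PLAU was lower by more than 1.5-fold in WT/HAQ and WT/-. MMP1, MMP7 and MMP10 stayed within 1.5-fold in each line, with log2 folds between -0.46 and 0.12. A gene is called raised or lowered where its scaled counts differed by 1.5-fold or more between the cGAMP and the control library of the same line. In WT/HAQ, PLAUR and MMP25 were raised and PLAU and PLAT were lowered, which is 2 and 2 of the 8 analysed genes. Of all analysed genes 12.8% were raised and 12.3% lowered in that line. In WT/-, PLAUR and MMP25 were raised and PLAU was lowered, 2 and 1 of 8, where 11.9% of all analysed genes were raised and 8.77% lowered. In HAQ/-, PLAUR and MMP25 were raised and 0 of 8 were lowered, where 6.75% of all analysed genes were raised and 5.76% lowered. The 8 genes had a median log2 fold of -0.29 in the parental line, -0.07 in WT/- and 0.00 in HAQ/-, and that of all analysed genes was between -0.01 and 0.00 in each line. Since the choice of the genes used this contrast, nothing is read from these counts.

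**Figure D1:**
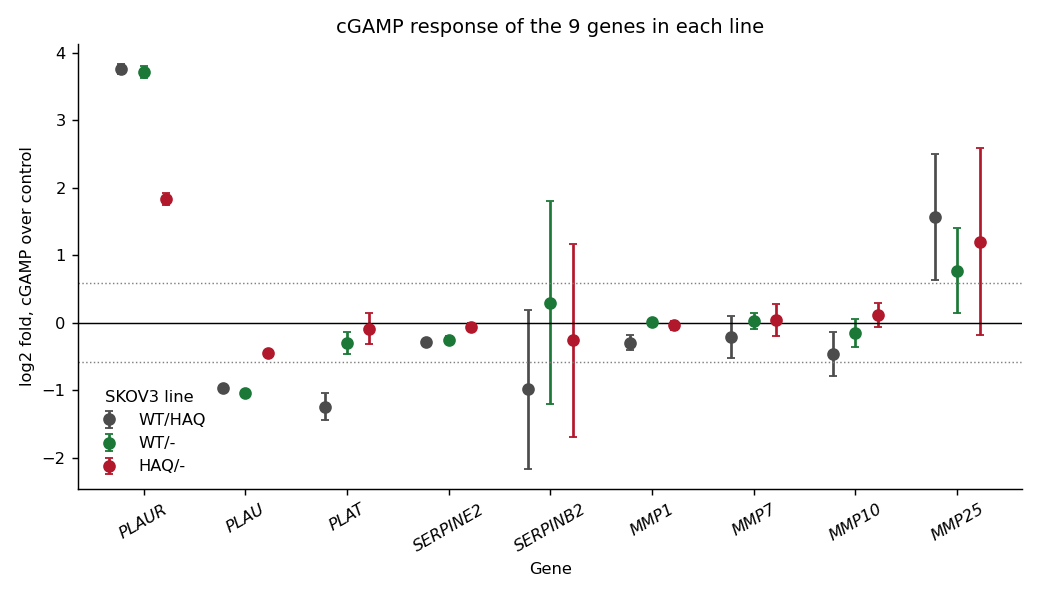
log2 ratio of TMM-scaled counts, cGAMP over control library, for each of the 9 genes in each SKOV3 line. Points are 1 pair of libraries, bars are 95% counting intervals, and dotted lines mark 1.5-fold. PLAUR lies at 3.76 for the parental line, 3.71 for WT/- and 1.84 for HAQ/-, PLAU lies below 0 in all 3 lines, and MMP1 and MMP7 lie between -0.29 and 0.04.

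PLAUR (ENSG00000011422, minus strand, chr19:43646095-43670547) encodes the glycolipid-anchored urokinase receptor. Its level in the control libraries was 1397 scaled counts in the parental line, 1102 in WT/- and 1356 in HAQ/-. With cGAMP it was 18896 in the parental line, 14450 in WT/- and 4837 in HAQ/-. The HAQ/- cGAMP library was the lowest of the treated ones, and PLAUR was selected on these same levels. PLAUR was 13.5-fold higher with cGAMP in the parental line, 13.1-fold in WT/- and 3.57-fold in HAQ/-. It ranked 144th from the top of 15126 genes by its fold in the parental line, 125th in WT/- and 173rd in HAQ/-, so its place among all genes moved little while its fold became smaller. The log2 fold was 1.92 higher in WT/HAQ than in HAQ/- (95% counting interval 1.81 to 2.03) and 1.88 higher in WT/- than in HAQ/- (lower bound 1.76). Between WT/HAQ and WT/- the log2 fold differed by 0.04 (-0.07 to 0.16), less than the counting error. Without cGAMP, PLAUR differed little between the lines, with a log2 ratio to the parental line of -0.34 in WT/- and -0.04 in HAQ/-.

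PLAU (ENSG00000122861, plus strand, chr10:73909177-73917496) encodes urokinase, the ligand of that receptor. Its control level was 10840 scaled counts in the parental line, 19911 in WT/- and 8293 in HAQ/-. With cGAMP its level was 5532 in the parental line, 9713 in WT/- and 6081 in HAQ/-. The order of the lines was therefore not the same in control and treated cells, since HAQ/- was the lowest without cGAMP and WT/HAQ the lowest with it. PLAU was 1.96-fold lower with cGAMP in WT/HAQ and 2.05-fold lower in WT/-. In HAQ/- the difference was 1.36-fold, within the 1.5-fold limit. The log2 fold was 0.52 further below 0 in WT/HAQ than in HAQ/-, as the difference of -0.52 (-0.59 to -0.46) shows, and WT/- less HAQ/- was -0.59 (-0.65 to -0.53). In GENCODE, 915 exonic bases of PLAU are shared with the antisense transcript gene C10orf55. The strand used in counting is not given in the sources used here, and C10orf55 held between 89 and 237 counts in a library against at least 5555 for PLAU. All 6 of the PLAU values were fractional estimates before rounding.

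Receptor and ligand transcripts were compared within each library. Per kilobase of transcript, the ratio of PLAUR to PLAU was 0.221 in the WT/HAQ control library and 5.85 in the cGAMP library of that line. In WT/- the ratio was 0.0948 and 2.55, and in HAQ/- it was 0.280 and 1.36. PLAUR was thus below PLAU in all 3 control libraries and above it in all 3 cGAMP libraries, on the per-kilobase scale. The crossing in HAQ/- depends on the transcript lengths used, since without division by length PLAUR had 4837 scaled counts and PLAU 6081 in that cGAMP library.

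**Figure D2:**
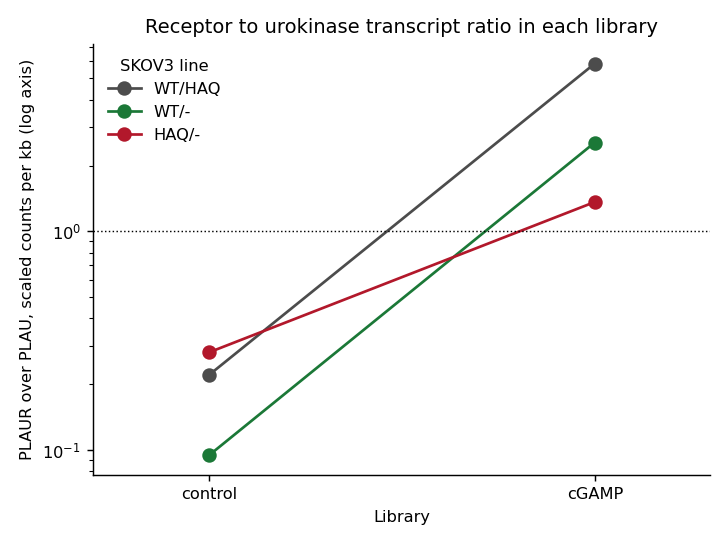
Ratio of PLAUR to PLAU scaled counts per kilobase (log axis) in the control and cGAMP library of each SKOV3 line, 1 library per point. All 3 control libraries lie below 1, between 0.0948 and 0.280, and all 3 cGAMP libraries lie above 1, between 1.36 and 5.85.

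PLAT (ENSG00000104368, minus strand of chromosome 8) encodes tissue plasminogen activator, the activator that works mainly on fibrin. Its level was 627 scaled counts in the WT/HAQ control and 264 in the cGAMP library. In WT/- the levels were 824 and 670, and in HAQ/- they were 316 and 298. The parental line alone had a difference past 1.5-fold, with PLAT 2.37-fold lower with cGAMP. The log2 fold was -0.30 in WT/- (-0.46 to -0.14) and -0.08 in HAQ/- (-0.31 to 0.14). The WT/HAQ fold differed from that of WT/- by -0.95 (-1.20 to -0.69) on the log2 scale, and so for PLAT the line with both alleles stood apart from both clones, unlike for PLAUR and PLAU. Urokinase transcripts outnumbered those of PLAT throughout, by 18.9 to 34.3 times per kilobase over the 6 libraries.

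SERPINE2 (ENSG00000135919, minus strand, chr2:223975045-224039318) encodes protease nexin 1, an inhibitor of thrombin, urokinase and plasmin. Its control level was 5835 scaled counts in the parental line, 7834 in WT/- and 6930 in HAQ/-, and with cGAMP it was 4779, 6589 and 6670 in the same order. The lowest library was that of WT/HAQ with cGAMP and the highest the WT/- control, and the treated library was the lower of the pair in each line. The log2 fold was -0.29 in the parental line, -0.25 in WT/- and -0.06 in HAQ/-, all within 1.5-fold.

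SERPINB2 (ENSG00000197632, plus strand, chr18:63871692-63903888) encodes plasminogen activator inhibitor 2 and was hardly expressed. It had 17 and 8 counts in the WT/HAQ control and cGAMP libraries, 7 and 6 in WT/- and 9 and 6 in HAQ/-. Its mean of 8.83 counts was under the limit of 10. The log2 fold was -0.98 in the parental line (-2.16 to 0.20), 0.29 in WT/- (-1.21 to 1.80) and -0.26 in HAQ/- (-1.69 to 1.17), so no difference was detectable at this depth. Of its values, 3 of 6 were fractional estimates before rounding, as an estimator gives for reads it cannot place with certainty. In GENCODE, 547 exonic bases of SERPINB2 are shared on the same strand with the protein-coding gene ENSG00000289724, for which no counts were available.

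MMP1, MMP7 and MMP10 lie on the minus strand of chromosome 11 in a cluster of 9 MMP genes (MMP7, MMP20, MMP27, MMP8, MMP10, MMP1, MMP3, MMP12 and MMP13) that spans 435225 bp from 102520508 to 102955732. MMP1 (ENSG00000196611, chr11:102789401-102798160) encodes interstitial collagenase, which cleaves fibrillar collagens. Its level in WT/HAQ was 1491 scaled counts in the control and 1218 in the cGAMP library. In WT/- it was 12916 and 13086, and in HAQ/- it was 3385 and 3305. WT/- was highest, HAQ/- between and the parental line lowest, whether or not cGAMP was given. Exons of MMP1 overlap the antisense pseudogene WTAPP1, which held 0 or 1 counts in each library. The log2 fold with cGAMP was -0.29 in the parental line (-0.40 to -0.19), 0.02 in WT/- (-0.02 to 0.06) and -0.03 in HAQ/- (-0.10 to 0.03).

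MMP7 (ENSG00000137673, chr11:102520508-102530750) encodes matrilysin, a small MMP made mostly by epithelial cells. Its level was 163 scaled counts in the WT/HAQ control and 141 in the cGAMP library. The WT/- libraries held 1233 and 1261, and the HAQ/- libraries held 279 and 287. The order of the lines was the same as for MMP1. The log2 fold with cGAMP was -0.21 in the parental line (-0.52 to 0.10), 0.03 in WT/- (-0.09 to 0.15) and 0.04 in HAQ/- (-0.20 to 0.27). Per kilobase, MMP1 was between 4.91 and 6.88 times MMP7 in all 6 libraries, although the levels of both genes ranged widely between lines.

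MMP10 (ENSG00000166670, chr11:102770502-102780628) encodes stromelysin 2, which cleaves several matrix proteins and activates other MMPs. Its level was 169 scaled counts in the WT/HAQ control and 123 in the cGAMP library. In WT/- it was 438 and 394, and in HAQ/- it was 462 and 502. Both clones were above the parental line, and here HAQ/- was not below WT/-. The log2 fold with cGAMP was -0.46 in the parental line (-0.78 to -0.14), -0.15 in WT/- (-0.36 to 0.06) and 0.12 in HAQ/- (-0.06 to 0.30), and none of the 3 reached 1.5-fold. The ratio of MMP1 to MMP10 per kilobase was between 5.87 and 8.86 in the WT/HAQ and HAQ/- libraries but 26.3 and 29.6 in those of WT/-.

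MMP25 (ENSG00000008516, plus strand, chr16:3046062-3060726) encodes a membrane-anchored MMP known from neutrophils. It had 12 and 33 counts in the WT/HAQ control and cGAMP libraries, 36 and 43 in WT/-, and 6 and 11 in HAQ/-. After scaling, its level was higher with cGAMP in every line, 2.96-fold in the parental line, 1.71-fold in WT/- and 2.30-fold in HAQ/-. The counting interval of the log2 fold excluded 0 in WT/HAQ (0.63 to 2.50) and WT/- (0.14 to 1.41) but not in HAQ/- (-0.18 to 2.58), where the log2 fold was 0.46 with a floor of 10 counts, within the 1.5-fold limit. Of its values, 5 of 6 were fractional before rounding. MMP25 shares 1454 exonic bases with the antisense gene MMP25-AS1, which held 138 and 248 counts in the WT/HAQ libraries, 266 and 252 in WT/- and 133 and 110 in HAQ/-, in the order control and cGAMP. Counts of the antisense gene were thus several times those of MMP25, and reads of the shared exons may have been assigned to either gene if strand was not used.

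**Figure D3:**
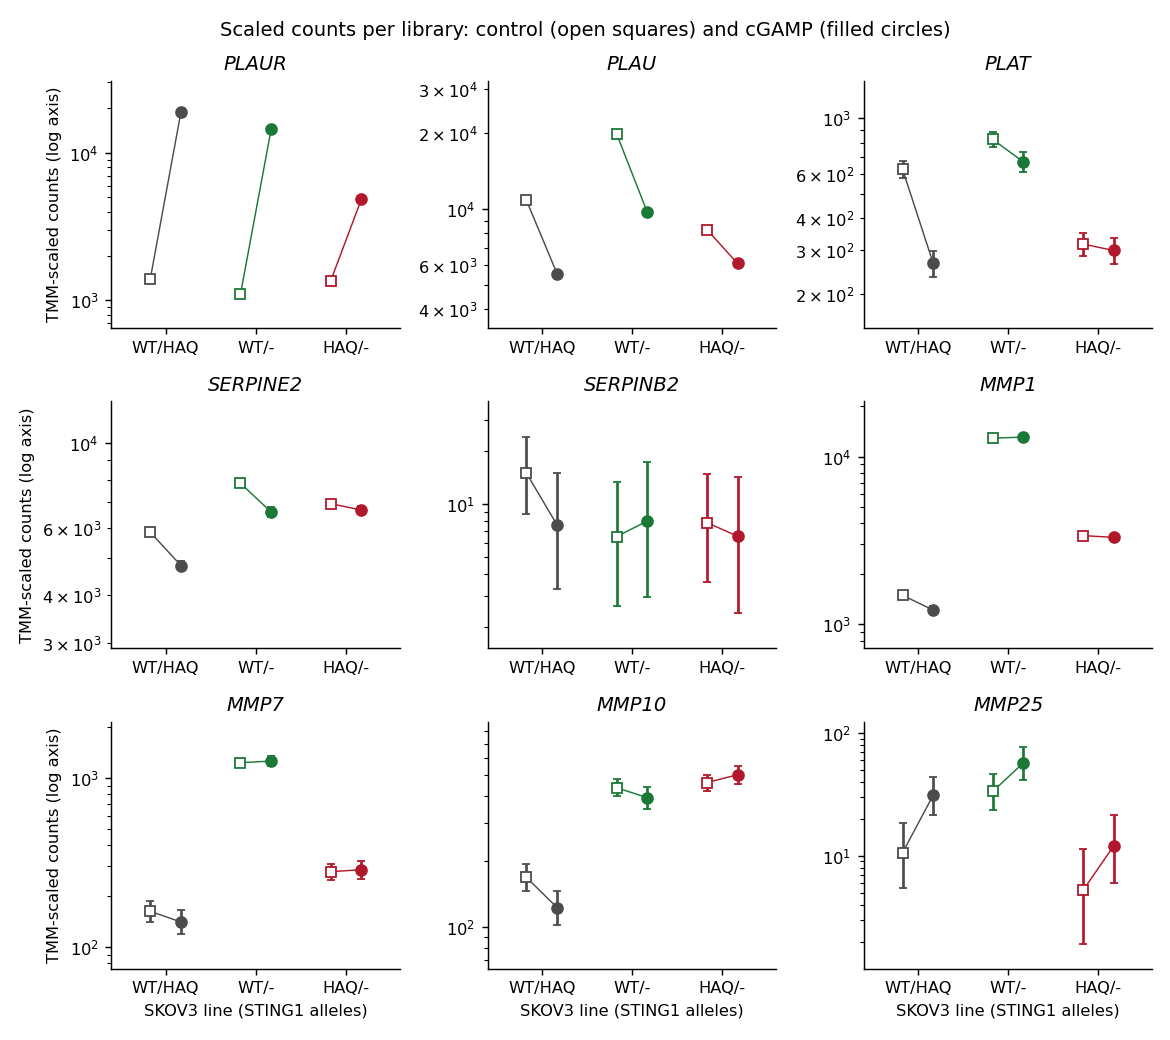
TMM-scaled counts of each gene (log axis, a separate range for each panel) in the control (open squares) and cGAMP (filled circles) library of each SKOV3 line, with bars for 95% counting intervals. PLAUR lies between 1102 and 1397 in controls and between 4837 and 18896 with cGAMP, whereas MMP1 and MMP7 are highest in both WT/- libraries.

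The control libraries of the clones were then set against that of the parental line. In the WT/- control library 5 of the 8 analysed genes (PLAU, MMP1, MMP7, MMP10 and MMP25) were higher than in the WT/HAQ control by 1.5-fold or more and 0 were lower, where 13.0% of all analysed genes were higher and 9.87% lower. In the HAQ/- control library 3 genes (MMP1, MMP7 and MMP10) were higher and 2 (PLAT and MMP25) lower, where 7.37% of all analysed genes were higher and 8.59% lower. The MMP25 call rests on 6 against 12 counts, with a log2 ratio of -1.02 (-2.38 to 0.34), and it is lost with a floor of 10 counts (-0.28). Both clones are set against the same parental library. Between the clones, 5 genes (PLAU, PLAT, MMP1, MMP7 and MMP25) were higher in WT/- and 0 lower, where 15.3% of all analysed genes were higher and 11.6% lower.

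MMP1 was 8.66-fold higher in the WT/- control than in the parental control, and 2.27-fold higher in HAQ/-. MMP7 was 7.58-fold higher in WT/- and 1.72-fold higher in HAQ/-. For MMP10 the factors were 2.59 in WT/- and 2.74 in HAQ/-, with a log2 ratio of WT/- to HAQ/- of -0.08 (-0.26 to 0.10). MMP1 and MMP7 thus graded from WT/- to HAQ/- to the parent, while MMP10 stood at the same height in both clones within counting error. PLAU was 1.84-fold higher in WT/- than in the parent, with a log2 ratio of -0.39 in HAQ/-. PLAT was 1.98-fold lower in HAQ/- than in the parent, and MMP25, with 36 counts in WT/- and 6 in HAQ/-, was 6.42-fold higher in the former clone (2.77 to 14.9), and its log2 ratio of 2.68 became 1.95 with a floor of 10 counts.

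Of the 9 genes of the chromosome 11 cluster, 5 were analysed (MMP7, MMP10, MMP1, MMP3 and MMP13) and the other 4 had at most 5 counts in any library. All 5 were higher by 1.5-fold or more in the WT/- control than in the parental control, and 4 of the 5, all but MMP3, were higher in the HAQ/- control, where 13.0% and 7.37% of all analysed genes were higher. Of the 5, MMP1, MMP7 and MMP10 were selected on these same levels, so nothing is read from the count. MMP3, stromelysin 1, had 12 counts in the parental control, 36 in WT/- and 15 in HAQ/-. MMP13, collagenase 3, had 15, 64 and 24 counts in the same order. In HAQ/- the log2 ratio to the parent was 0.30 for MMP3 (-0.77 to 1.37) and 0.66 for MMP13 (-0.26 to 1.57), so neither was beyond counting error. With cGAMP, MMP3 and MMP13 were the 2 of the 5 that were lowered in WT/HAQ, where 12.3% of all analysed genes were lowered. MMP3 went from 12 to 2 counts (log2 fold -1.90 with the 2 counts set to 3, -3.62 to -0.17) and MMP13 from 15 to 7 (-0.99, -2.25 to 0.26). With a floor of 10 counts neither was lowered. In WT/- and HAQ/- 0 of the 5 were raised or lowered, where 11.9% and 6.75% of all analysed genes were raised and 8.77% and 5.76% lowered.

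**Figure D4:**
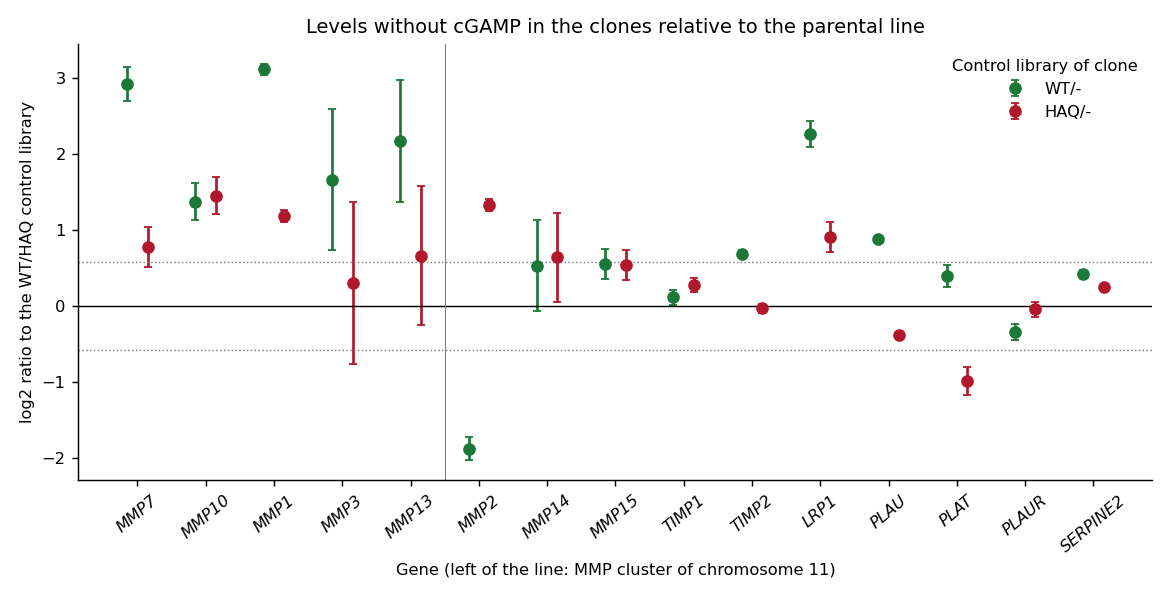
log2 ratio of TMM-scaled counts in the WT/- and HAQ/- control libraries to the WT/HAQ control library, with 95% counting intervals and dotted lines at 1.5-fold. The chromosome 11 cluster is left of the vertical line, where MMP1 in WT/- lies at 3.11 and MMP7 at 2.92. MMP2, outside the cluster, lies at -1.88 in WT/- and 1.33 in HAQ/-.

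Other changes went with the clones. The summed level of 14 immediate-early genes (among them FOS, JUN and EGR1, which encode transcription factors induced by growth factors and stress) was 86699 scaled counts in the parental control, 135764 in the WT/- control and 51894 in the HAQ/- control. Of the 14, 10 were higher by 1.5-fold or more in WT/- than in the parent and 0 lower, where 13.0% of all analysed genes were higher and 9.87% lower. In HAQ/- 0 were higher and 11 lower, where 7.37% of all analysed genes were higher and 8.59% lower. Of the 9 genes, PLAU, PLAT and MMP25 had that same order of control levels (WT/- highest, then the parent, then HAQ/-), and the other 6 genes did not. With cGAMP the sum was 56813 in the parental line, 104579 in WT/- and 33689 in HAQ/-, lower than in the control of each line. Of the 14, 8, 5 and 8 were lowered in the same order, where 12.3%, 8.77% and 5.76% of all analysed genes were lowered. JUNB was raised in WT/HAQ and 0 of the 14 in WT/- and HAQ/-, where 12.8%, 11.9% and 6.75% of all analysed genes were raised. Over the 6 epithelial markers, the log2 ratio of the WT/- to the parental control ranged from -3.95 for the keratin gene KRT19 to -0.04 for CDH1, the gene of E-cadherin. In HAQ/- it ranged from -3.77 for KRT19 to -0.13 for CDH1. The part of these differences in the levels of the 9 genes was not tested.

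Other genes of the pathway were counted in the same way. A list of 42 further genes (18 of the plasminogen system, 19 MMPs and 5 MMP inhibitors) was taken from general knowledge of the pathway, and 27 of them were analysed. The list was drawn up with earlier results of these data known, and it leaves out the genes that were selected on their folds. Its counts therefore do not describe the pathway as a whole. Of the 27, 4 were raised and 2 lowered in WT/HAQ, 4 raised and 1 lowered in WT/-, and 1 raised and 3 lowered in HAQ/-, with a median log2 fold of 0.01 in each line. These counts are near the shares of all analysed genes, of which 12.8% were raised and 12.3% lowered in WT/HAQ, 11.9% and 8.77% in WT/-, and 6.75% and 5.76% in HAQ/-. Of the 12 analysed plasminogen system genes on the list 0 were raised and 0 lowered in WT/HAQ, 1 raised (SERPINI1) in WT/-, and 2 lowered (SERPINI1 and SERPINA5) in HAQ/-. Plasminogen itself (PLG) was not among the analysed genes.

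The mean treatment effect across lines was examined by edgeR's quasi-likelihood F test with the line as a block and adjustment over all 15126 genes, on 2 residual degrees of freedom. At an adjusted p under 0.05 it called 344 genes higher (2.27%) and 145 lower (0.959%). Of the 27 further pathway genes, which leave out those selected on their folds, it called 0 in either direction. By edgeR 3 of them (VLDLR, MMP17 and IGF2R) had an unadjusted p under 0.05. DESeq2 also called 0, with 1 at an unadjusted p under 0.05. The average log2 fold was 0.41 for VLDLR, a receptor that takes up protease and serpin complexes (edgeR adjusted p = 0.0988), 0.79 for MMP17 (adjusted p = 0.131) and -0.18 for IGF2R (adjusted p = 0.191). MMP17, a membrane-anchored MMP, was the one list gene past 1.5-fold in the same direction in all 3 lines. It had 27 and 41 counts in the WT/HAQ control and cGAMP libraries, 19 and 27 in WT/- and 30 and 38 in HAQ/-.

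Between the control libraries, in WT/- 6 of the 27 were higher than in the parent and 4 lower, and in HAQ/- 6 were higher and 2 lower. Of all analysed genes 13.0% were higher and 9.87% lower in the first comparison, and 7.37% and 8.59% in the second. MMP2, gelatinase A, had 1504 scaled counts in the parental control, 410 in WT/- and 3782 in HAQ/-, and its cGAMP libraries held 1511, 488 and 3777. Its order over the lines was the reverse of that of MMP1 in the clones, with HAQ/- highest and WT/- lowest. LRP1, the endocytic receptor that clears receptor-bound urokinase and inhibitor complexes, had 282 scaled counts in the parental control, 1351 in WT/- and 528 in HAQ/-. MMP9, gelatinase B, had between 0 and 3 counts in a library. MMP14, the membrane-anchored activator of pro-MMP2, had 38, 52 and 60 counts in the parental, WT/- and HAQ/- controls.

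TIMP1 and TIMP2, secreted inhibitors of the MMPs, were detected throughout. TIMP1 lay between 1442 and 1959 scaled counts over the 6 libraries. TIMP2 was 4423 in the parental control, 7114 in WT/- and 4327 in HAQ/-, and its log2 fold with cGAMP was 0.21 in the parental line, -0.02 in WT/- and 0.07 in HAQ/-.

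The genes whose pattern over the 6 libraries was most like that of each member were named by the smallest distance between log2 levels centred on each gene's mean. For PLAUR they were APOL1, TMEM229B and GBP5, the first and last of which are known as interferon-inducible, at distances of 0.499, 0.519 and 0.532. APOL1 had log2 folds with cGAMP of 3.99, 3.07 and 2.02 in the order WT/HAQ, WT/- and HAQ/-. For PLAU they were NRARP, TBC1D10A and ATP13A3, at 0.183, 0.197 and 0.265, and NRARP, a gene regulated by Notch, had log2 folds of -1.11, -0.92 and -0.43.

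MMP1 and MMP7 were the nearest gene of each other, at a distance of 0.421. The next genes for MMP1 were DAB2 (0.777) and PCDH20 (0.803), and for MMP7 they were ZPLD1 (0.485) and PCDH20 (0.755). For MMP10 they were COL1A2, a chain of type I collagen, at 0.334, CCDC136 at 0.456 and ZNRF2P1 at 0.488. The genes nearest to MMP25 were KYNU, NFKBIZ and IRF1, at 0.497, 0.525 and 0.527. With between 6 and 43 counts in a library, the pattern of MMP25 carries a large counting error. PLAT was nearest to SMG1P2, RELB and G0S2, at 0.288, 0.337 and 0.347, and SERPINE2 was nearest to TATDN2, GPSM1 and TBKBP1, at 0.114, 0.117 and 0.121. SERPINB2, whose counts are too low to give a pattern, was nearest to RP1-39G22.7, SNHG21 and AP000892.6, at 0.350, 0.386 and 0.391. Since the search ran over 15126 genes and 6 libraries of 3 lines, such likeness is a description of these libraries.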

How the data were processed

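RNA was measured in 6 SKOV3 libraries, 1 per line and treatment. The authors deposited 1 table of expected counts per gene, which are estimated counts without normalization. The submitters' processing notes name STAR, RSEM and GRCh38, without versions. The annotation release and the strand setting are not given in the sources used here. All columns were matched to samples by library name (0 left over), and values were rounded to whole counts. TMM scaling and the quasi-likelihood F test used edgeR 4.0.16 in R 4.3.3, with DESeq2 1.42.0 as an alternative. Python 3.11.15 with pandas 2.3.3, scipy 1.17.1 and matplotlib 3.10.9 did the rest. Folds used a floor of 3 counts. Intervals are 95% Wilson intervals for ratios, exact Poisson intervals for levels, and normal intervals for differences of log2 folds between lines. Counts of reads without molecular identifiers carry further error. Positions, transcript lengths and overlaps are from GENCODE release 44 on GRCh38, with the Ensembl canonical transcript as length, and promoters are from RefSeq on GRCh38.p14. The steps were tested on simulated data.

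The members and lists were chosen with earlier results of these data known. Named genes were the 9 members, STING1, ISG15, IFIT1, IFNB1, the pathway genes past 1.5-fold in the same direction in all 3 lines or called by the test, TIMP1, TIMP2, MMP2, MMP9 and MMP14, and the 3 nearest genes of each member. VLDLR, IGF2R, SERPINI1, SERPINA5, LRP1, KRT19, CDH1, CD68, PTPRC, CD3E, PDGFRB, MUC16, WT1 the cluster genes MMP3 and MMP13, and the genes that overlap a member were named after their values were seen. The rule also takes in 1 gene that is not reported here.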

Additional observations from a re-analysis of the deposited data

How the results depend on the processing

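Each of the 9 genes has 6 log2 ratios (3 responses to cGAMP and 3 comparisons of control libraries), 54 in all. With DESeq2 size factors 54 of them stayed within the counting error, and with total counts 9 moved, all of PLAU, SERPINE2 or MMP1. Total counts also turned the sign of 3 ratios near 0, from 0.02 to -0.04 for MMP1 and from 0.03 to -0.03 for MMP7 (cGAMP in WT/-), and from -0.04 to 0.02 for PLAUR (HAQ/- over WT/HAQ control). None of these is a called difference. With total counts the median of all analysed genes moved by at most -0.10 (WT/- over HAQ/- control), and 8 in place of 5 further pathway genes were lower in that comparison.

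The counts of raised and lowered members depended on the limits. At a mean count of at least 50, which leaves out MMP25, 1 member was raised in each line, and with a floor of 10 counts 1 was raised in HAQ/-. At a fold of at least 2, 1 member was lowered in WT/HAQ and 1 raised in WT/-. At a fold of at least 1.2, 5 were lowered in the parental line, 2 in WT/- and 1 in HAQ/-. Of the further pathway genes, at a mean count of at least 50 the number raised and the number lowered were 0 in each line, and with a floor of 10 counts 0 were lowered in WT/HAQ. Without the filter 2 were raised in HAQ/-. At a fold of at least 2, 0 were raised and 1 lowered in WT/HAQ, 1 was raised and 0 lowered in WT/-, and 0 were raised in HAQ/-. At a fold of at least 1.2, 8, 7 and 2 were raised and 4, 4 and 5 lowered in the order WT/HAQ, WT/- and HAQ/-. Of all 15126 analysed genes, 3653, 3474 and 2331 were raised and 4022, 3395 and 2605 lowered at that limit, in the same order. At a fold of at least 2 these were 1115, 994 and 470 raised and 810, 525 and 293 lowered. With a floor of 10 counts they were 1885, 1715 and 914 raised and 1739, 1111 and 711 lowered.

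The test across the lines gave 344 higher and 145 lower genes of all analysed. DESeq2's Wald test gave 772 and 583, no line block 57 and 4, and no filter 943 and 864. Without the WT/HAQ line it gave 136 and 50, without the HAQ/- line 1285 and 1309, and without the WT/- line 0 and 0 by edgeR (1888 genes at an unadjusted p under 0.05), and the cause of these shifts was not tested. The number of further pathway genes called was 0 in all of these fits. The main test is paired by line, and the labels give no replicate numbers for another pairing.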
